A study of Mus musculus with 4 samples.

Results

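The clustered histone genes encode the bulk histones H1, H2A, H2B, H3 and H4 and mostly lie side by side in the mouse genome. They were taken here as every gene symbol that begins with Hist1h, Hist2h, Hist3h or Hist4h, without the 1 symbol that carries the suffix -ps. This gave 69 of the 55341 symbols counted in cerebellar RNA-seq. Of these, 22 reached 10 counts or more over the 4 libraries and are the members described below, among 20174 genes that reached the same level. The members were 3 genes of 6 for H1, 5 of 20 for H2A, 7 of 18 for H2B, 3 of 12 for H3 and 4 of 13 for H4. A further 28 symbols had some counts but fewer than 10, and 19 had none in any library. Among the 19 were 2 symbols annotated as pseudogenes, Hist1h2aj and Hist1h2al.

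RNA came from whole cerebellum of mice at postnatal day 14, in 2 WT libraries (WT 1 and WT 2) and 2 Kdm6b-cKO libraries (cKO 1 and cKO 2). All 4 animals were Kdm6b fl/fl, with loxP sites around part of both copies of the gene, and those of the cKO group had Atoh1-Cre in addition, a recombinase whose promoter acts in granule neuron precursors. The study described the animals as littermates and each replicate as 1 mouse. It asked how loss of KDM6B, an enzyme that takes methyl groups off lysine 27 of histone H3, altered gene expression while cerebellar granule neurons mature.

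Clustered histone genes are transcribed mainly during S phase, when new DNA needs new nucleosomes. Most have no intron, and their mRNAs usually end just past a short stem-loop in the 3′ untranslated region (UTR), which the protein SLBP binds, in place of a poly(A) tail. Some of them are also known to give polyadenylated transcripts in cells that have left the cell cycle. The precursors of granule neurons are among the last cells of the cerebellum to divide, and the study described their division as over by postnatal day 14. The RNA of these libraries was enriched for poly(A), per the study's methods, so transcripts with a tail and transcripts without one that passed the enrichment cannot be told apart in these counts.

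The stem-loop was read from the annotated transcripts, because it is the feature that sets these mRNAs apart and because it shows how far each member's annotation runs past it. The 16-base pattern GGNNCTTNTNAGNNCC was searched on the transcript strand in the first 150 bases after the stop codon. It was present in 46 of the 50 symbols with an annotated 3′ UTR of 50 bases or more, and in 5 of 20482 other protein-coding genes (0.0244%), 1 of which was H2afx, a variant H2A gene that lies outside the clusters. Among the members 18 held it, starting 24 to 58 bases after the stop codon. The capitals below mark the 16 bases, with 5 bases on either side, in GENCODE M21 transcripts of GRCm38. The sites were chr13:23739507-23739532 on the plus strand for Hist1h1c, chr11:58949344-58949369 on the plus strand for Hist3h2ba, chr11:58955167-58955192 on the plus strand for Hist3h2a, chr13:23585526-23585551 on the minus strand for Hist1h2be, chr13:23576239-23576264 on the plus strand for Hist1h3d, chr13:22040961-22040986 on the minus strand for Hist1h4i, chr13:23531453-23531478 on the plus strand for Hist1h4h and chr3:96262934-96262959 on the minus strand for Hist2h4.
Hist1h1c: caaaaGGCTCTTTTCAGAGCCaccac
Hist3h2ba: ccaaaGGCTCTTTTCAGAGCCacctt
Hist3h2a: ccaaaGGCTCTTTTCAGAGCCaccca
Hist1h2be: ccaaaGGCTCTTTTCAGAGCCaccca
Hist1h3d: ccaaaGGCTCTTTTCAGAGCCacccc
Hist1h4i: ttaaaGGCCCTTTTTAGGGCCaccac
Hist1h4h: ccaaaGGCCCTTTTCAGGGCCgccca
Hist2h4: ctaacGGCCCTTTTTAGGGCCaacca

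The form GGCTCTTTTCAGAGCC was shared by 15 of the 18 members with a stem-loop, of types H1, H2A, H2B and H3, and by 26 symbols in all. The 3 H4 members with a stem-loop had other stem bases, in the forms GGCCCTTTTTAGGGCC for Hist1h4i and Hist2h4 and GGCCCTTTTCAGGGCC for Hist1h4h. Of the 4 members without a match, Hist2h2be had a long 3′ UTR with no match in the bases searched, Hist1h2bc is annotated as spliced a few bases after its stop codon to a second exon, the annotation of Hist2h3b ends inside the stem-loop, and Hist1h4k is annotated as coding sequence alone.

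The promoters were read to show which sequence elements the genes share. Promoter windows of 250 bases before to 50 bases after the RefSeq start (GRCm38.p6) were matched for 62 of the 69 symbols and searched on both strands. The symbols without a window included the members Hist1h2bc, Hist2h2be and Hist2h4. The CCAAT box (CCAAT) was in 85.5% of the histone windows and in 37.4% of 32851 promoters of all genes. By type it was in all 6 H1, 18 H2A, 16 H2B and 10 H3 windows, and in 3 of 12 H4 windows. TATAAA was in 56.5% against 13.6%. The octamer ATTTGCAT was in 22.6% against 1.74%, and its 14 matches were in 7 of 18 H2A windows and 7 of 16 H2B windows, with none in H1, H3 or H4. Shown are the 150 bases before the start of Hist1h1c, the H1 gene of highest level, and of the neighbours Hist3h2a and Hist3h2ba, the most abundant H2A and H2B genes. They lie at chr13:23738657-23738806, chr11:58954535-58954684 and chr11:58948761-58948910, all on the plus strand, and capitals mark matches to any of these 3 motifs on either strand.
Hist1h1c: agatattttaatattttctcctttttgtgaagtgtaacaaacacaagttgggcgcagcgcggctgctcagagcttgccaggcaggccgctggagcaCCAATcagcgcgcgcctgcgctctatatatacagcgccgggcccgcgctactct
Hist3h2a: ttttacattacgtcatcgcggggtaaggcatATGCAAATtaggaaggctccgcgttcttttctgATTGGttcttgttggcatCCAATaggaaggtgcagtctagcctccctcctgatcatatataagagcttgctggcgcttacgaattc
Hist3h2ba: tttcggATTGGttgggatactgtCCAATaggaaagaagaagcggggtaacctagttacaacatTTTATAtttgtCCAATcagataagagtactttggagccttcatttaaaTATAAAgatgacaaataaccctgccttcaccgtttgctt

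The clusters differed in how many of their symbols were counted. In GRCm38 the Hist1 symbols are on chromosome 13, where 15 of 56 reached the level of a member, at positions 21750194 to 23740367. The Hist2 cluster on chromosome 3 gave 5 of 10, the Hist3 cluster on chromosome 11 gave both of its 2, and the single Hist4 symbol on chromosome 6 gave none. Of the 22 members 19 had a single exon. Divergent neighbours whose starts lie within 1000 bp of each other made 14 pairs, mostly of an H2A with an H2B gene, and in 2 of these both genes were members: Hist1h2ae with Hist1h2bg, 176 bp apart, and Hist1h2ac with Hist1h2bc, 251 bp apart.

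Before the comparison, the libraries were checked against their labels. Gene counts per library ran from 8811849 to 9892363, so that 1 count was 0.101 to 0.112 CPM (a read count scaled to a common library total, with TMM factors), and 3 counts, the limit that a count of 0 allows, were 0.302 to 0.336 CPM. Kdm6b had 154 and 154 CPM in WT 1 and WT 2 beside 127 and 119 CPM in cKO 1 and cKO 2 (change -0.33 on the log2 scale, SE 0.076, adjusted p = 0.0162 by edgeR). The direction was the same under 13 other settings, and the call was lost with no filter (edgeR adjusted p = 0.0722). It was also lost with any 1 library left out, where the log2 fold changes ran from -0.37 to -0.28. Such a fit leaves a group of 1 library, so a call lost there cannot be laid to 1 gene. The 4 granule neuron markers were all measured and summed to 3253, 3403, 3245 and 3243 CPM. WT 1 had Y-linked transcripts at 233 CPM and Xist, the RNA of the inactive X chromosome, at 0.431 CPM, while Xist was 1359 to 1599 CPM in the other 3 libraries, so WT 1 was the only library with a male pattern. Markers of choroid plexus, an epithelium beside the cerebellum, summed to 695 CPM in cKO 1 against 38.0 to 44.6 CPM in the others. Counting reads in bulk tissue, fewer cells of a type and less RNA per cell cannot be told apart.

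Counted reads of clustered histone genes were few, and those of H2B prevailed. The 22 members together had 2908 counts, which was 0.00860% and 0.00800% of gene counts in WT 1 and WT 2 and 0.00701% and 0.00744% in cKO 1 and cKO 2. H2B genes held 65.6% of the summed histone CPM, H1 genes 15.4%, H2A genes 12.1%, H4 genes 4.60% and H3 genes 2.36%, on the CPM scale and not per length. These are shares of counted reads from poly(A)-enriched RNA, and reads that fit several genes are left out. Over 50% of the 150-base stretches were shared with other genes in 5 of the 22 members and in 9 of the 19 symbols without a count. Hist3h2ba and Hist2h2be shared none. The 6 most abundant members, Hist3h2ba, Hist1h2bc, Hist1h1c, Hist2h2be, Hist3h2a and Hist1h2be, held 87.1% of all member counts. At the low end, Hist1h2ac was the member just inside the cut with 11 counts (6, 1, 1 and 3 in WT 1, WT 2, cKO 1 and cKO 2), and Hist1h4d the symbol just outside it with 9 (2, 3, 0 and 4).

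**Figure D1:**
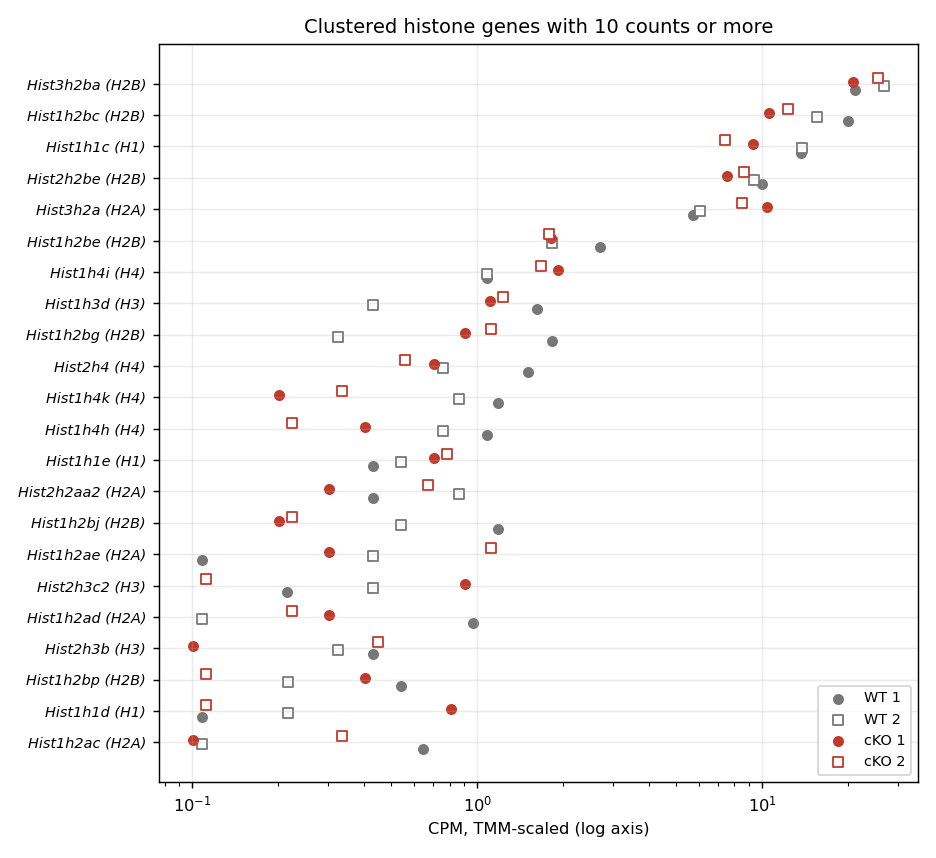
Level of each of the 22 members (rows, histone type in brackets) in each library, in CPM scaled by TMM on a log axis, with WT in grey and cKO in red and 1 point per library. The 6 genes at the top hold 87.1% of the counts, Hist1h1c and Hist1h2bc have both cKO points left of both WT points, Hist3h2a has them on the right, and the lowest genes rest on 1 to 10 counts per library.

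Per kilobase of exon, so that genes can be compared with each other, Hist3h2ba had the highest mean level over the 4 libraries at 38.5 CPM per kb. It was followed by Hist1h2bc at 12.7, Hist1h1c at 7.08, Hist3h2a at 3.57 and Hist2h2be at 3.40 CPM per kb. The ranges over the libraries did not overlap between Hist3h2ba (33.98 to 43.6), Hist1h2bc (9.16 to 17.4) and Hist1h1c (4.74 to 8.86 CPM per kb). The ranges of Hist3h2a (2.66 to 4.84) and Hist2h2be (2.89 to 3.83 CPM per kb) overlapped. The exon length of Hist3h2a includes a part shared with another gene, Trim17, where HTSeq's usual mode counts no reads. Its level per kb can therefore be too low, and the order of these 2 genes cannot be told. Replication-independent variants are mostly made outside S phase as well, and mostly from polyadenylated mRNAs. The genes listed as such, among them H2afx with its stem-loop, lay on both sides of Hist3h2ba in the same libraries. Of 11, 4 were above it: H3f3b and H3f3a, both encoding H3.3, at 201 and 148 CPM per kb, H1f0 at 96.0 and H2afz at 45.1. The other 7 were below it, from 0.816 CPM per kb for Cenpa, the centromere H3, to 33.6 for H1fx.

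Most member counts fell in genes whose annotation runs on past the stem-loop. A group of 15 members had a 3′ UTR of 100 bases or more beyond the stem-loop, or one that long without it, and held 2781 of the member counts (95.6%). The annotated transcript ran 840 bases past the stem-loop in Hist1h1c, 1643 in Hist3h2a, 1861 in Hist1h2be and 169 in Hist3h2ba. The 7 members whose annotation ends sooner, among them Hist1h4h and Hist1h4k, held 127 counts (4.37%). AATAAA, the usual signal for adding a poly(A) tail, lay in the last 50 bases of the annotated transcript in 4 of the 6 most abundant members, and in 7 of all 22. The 6 also had longer exons in sum, with a median of 1853 bases against 705 for the other 16 members. Hist3h2ba, the most abundant, went the other way with 614 bases.

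Among the clustered histone genes 2 fell in cKO, and none rose. Of the 22 members, 9 had enough counts for the test across 16617 genes, edgeR's quasi-likelihood test with Benjamini-Hochberg adjustment. Of these 9, 2 were lower in cKO at an adjusted p under 0.05, Hist1h1c and Hist1h2bc, where 2.17% of all tested genes were lower and 4.04% passed in either direction. None was higher in edgeR, where 1.87% of all tested genes were, nor in limma-voom. At an unadjusted p under 0.05 the edgeR counts were 1 higher and 2 lower, where 16.3% of all tested genes passed in either direction. DESeq2, which gave an adjusted p for 1 of the 22 members, called 0 in either direction, with 0 higher and 2 lower at an unadjusted p under 0.05. The median log2 fold change of the 9 was -0.095, beside 0.0036 for all tested genes. The other 13 members, with 11 to 33 counts each, did not pass the filter. When all 22 were tested, with genes of 10 counts or more, none passed in edgeR. At an unadjusted p under 0.05, 1 was higher and 4 were lower, beside 2905 of all 20174 genes in either direction.

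Linker histone H1, which binds where DNA enters and leaves the nucleosome, was represented almost entirely by Hist1h1c, the gene of H1.2, at chr13:23738808-23740367 on the plus strand. Hist1h1c had 13.7 and 13.8 CPM in WT 1 and WT 2 beside 9.27 and 7.39 CPM in cKO 1 and cKO 2, from 127, 128, 92 and 66 counts. Both cKO libraries were below both WT libraries, and the WT libraries were nearly equal. The group means were 13.8 ± 0.087 CPM in WT and 8.33 ± 1.33 CPM in cKO (SD, n = 2), a log2 fold change of -0.72 with an SE of 0.20 (adjusted p = 0.0420 by edgeR). No 150-base stretch of Hist1h1c is shared with another gene, and no other gene overlaps its exons. With 1 library left out at a time, the log2 fold changes ran from -0.89 to -0.57, and the call was lost each time. Such a fit leaves a group of 1 library, so a call lost there cannot be laid to this gene. With all 4 libraries, the call was lost when genes of low counts were added to the test (edgeR adjusted p = 0.0572 with all genes of 10 counts or more, 0.148 with no filter). DESeq2 gave an unadjusted p of 0.0172 and no adjusted p.

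The other H1 members were near the counting limit. Hist1h1e, which encodes H1.4, had 4 and 5 counts in WT and 7 and 7 in cKO, and its exons overlap those of Hist1h2be on the same strand. Hist1h1d, which encodes H1.3, had 1, 2, 8 and 1 counts. Summed over H1, the level was 14.2 and 14.6 CPM in WT and 10.8 and 8.29 CPM in cKO, or 0.749 and 0.575 of the WT mean, and Hist1h1c made up 92.3% of it. Without Hist1h1c the same ratios were 2.33 in cKO 1 and 1.38 in cKO 2, on 35 counts in all.

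H2B, which pairs with H2A in the nucleosome core, had the most members. Hist1h2bc, at chr13:23684199-23692908 on the plus strand, had 20.1 and 15.5 CPM in WT beside 10.6 and 12.3 CPM in cKO, from 186, 144, 105 and 110 counts. All values of cKO lay below those of WT, with the largest gap inside WT. The means were 17.8 ± 3.19 and 11.5 ± 1.23 CPM (SD, n = 2), a log2 fold change of -0.64 with an SE of 0.18 (adjusted p = 0.0483 by edgeR). Of its 1007 stretches of 150 bases, 175 are shared with other H2B genes, where reads can fit several genes and are then not counted. The value is just inside the threshold, and other settings put it outside: adjusted p = 0.0515 with RLE scaling, 0.0577 with library size alone, 0.0566 with genes of mean CPM 1 or more, 0.0709 with genes of 10 counts or more, 0.196 with no filter and 0.0594 with limma-voom, while DESeq2 gave none (unadjusted p = 0.0188). The log2 fold change was -0.44 without WT 1, the library of male pattern, -0.81 without WT 2, -0.53 without cKO 1 and -0.75 without cKO 2. Of these fits only that without WT 2 kept the call, and each leaves a group of 1 library.

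Hist3h2ba, the most abundant member, overlapped between the genotypes. It had 21.2 and 26.8 CPM in WT beside 20.9 and 25.5 CPM in cKO, with a log2 fold change of -0.05 with an SE of 0.15 (adjusted p = 0.914 by edgeR). Hist2h2be, which encodes a variant of H2B described in olfactory neurons, was at 10.03 and 9.39 CPM in WT and 7.56 and 8.63 CPM in cKO. Its groups did not overlap, and its log2 fold change of -0.27 with an SE of 0.21 did not pass (adjusted p = 0.596 by edgeR). Neither gene shares a 150-base stretch with another gene. Hist1h2be was at 2.697, 1.84, 1.81 and 1.79 CPM, from 25, 17, 18 and 16 counts (change -0.33 on the log2 scale, SE 0.43, adjusted p = 0.780 by edgeR), with WT 1 alone above the rest.

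In Hist1h2bg, 1 WT library was high and the other low: 17 and 3 counts in WT beside 9 and 10 in cKO (change -0.09 on the log2 scale, SE 0.64, adjusted p = 0.968 by edgeR). Of the H2B members below the filter, Hist1h2bj had 11 and 5 counts in WT and 2 and 2 in cKO (log2 fold change -1.96 with genes of 10 counts or more, unadjusted p = 0.0475, adjusted p = 0.340 by edgeR), and Hist1h2bp had 5, 2, 4 and 1. The H2B sum was 57.6 and 54.6 CPM in WT and 42.3 and 49.7 CPM in cKO, or 0.754 and 0.886 of the WT mean. Without Hist3h2ba, which made up 46.2% of it, the ratios were 0.669 and 0.754.

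Among H2A genes, which pair with H2B, Hist3h2a held most of the counts and was higher in both cKO libraries. It was at 5.72 and 6.05 CPM in WT and 10.4 and 8.51 CPM in cKO, from 53, 56, 103 and 76 counts. Both cKO libraries were above both WT libraries. The means were 5.88 ± 0.233 and 9.45 ± 1.32 CPM (SD, n = 2), a log2 fold change of 0.69 with an SE of 0.23. This did not pass the threshold (edgeR adjusted p = 0.114, unadjusted p = 0.00802), and it stayed outside under each of 13 other settings. In the other edgeR and limma-voom fits on all 4 libraries the adjusted p ran from 0.0698 to 0.251, and DESeq2 gave none.

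The exons of Hist3h2a, at chr11:58954685-58956830 on the plus strand, overlap those of Trim17, a ubiquitin ligase gene, over 560 of its 1997 stretches of 150 bases, and those of Gm44313 on the other strand. In HTSeq's usual mode, reads in the shared part are counted for neither gene. Trim17 was at 4.75 and 4.32 CPM in WT and 3.93 and 3.25 CPM in cKO (log2 fold change -0.33, adjusted p = 0.672 by edgeR).

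The other 4 H2A members had 11 to 21 counts each and no common direction. Hist1h2ae had 1 and 4 counts in WT and 3 and 10 in cKO, and Hist2h2aa2, whose sequence is fully shared with another gene and whose counts are therefore uncertain, had 4, 8, 3 and 6. Hist1h2ad, with 59.3% of its 150-base stretches shared with other genes, had 9, 1, 3 and 2. The H2A sum was 7.87 and 7.56 CPM in WT and 11.4 and 10.9 CPM in cKO, or 1.48 and 1.41 of the WT mean. Hist3h2a made up 81.3% of it, and without it the ratios were 0.549 and 1.28.

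For H3 and H4, which form the tetramer at the centre of the nucleosome, counts were lowest. Hist1h3d, an H3 gene, had 15 and 4 counts in WT and 11 and 11 in cKO (change 0.19 on the log2 scale, SE 0.60, adjusted p = 0.926 by edgeR), so the WT libraries enclosed the cKO libraries. Hist2h3c2 had 2, 4, 9 and 1 counts and Hist2h3b 4, 3, 1 and 4, and over 50% of the 150-base stretches of each are shared with other genes. The H3 sum was 2.27 and 1.19 CPM in WT and 2.12 and 1.79 CPM in cKO, or 1.23 and 1.04 of the WT mean.

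The 4 H4 members, which encode the same protein, were split. Hist1h4i had 10 and 10 counts in WT and 19 and 15 in cKO, or 1.08 and 1.08 against 1.92 and 1.68 CPM (change 0.73 on the log2 scale, SE 0.49, adjusted p = 0.504 by edgeR). Hist2h4 had 14, 7, 7 and 5 counts, Hist1h4k 11, 8, 2 and 3, and Hist1h4h 10, 7, 4 and 2. The counts of Hist1h4k are uncertain, since 53.4% of its 150-base stretches are shared with other H4 genes. In CPM the values of cKO were above those of WT in Hist1h4i and below them in the other H4 members, which were under the filter. With genes of 10 counts or more, the log2 fold changes of these were -0.82 for Hist2h4, -1.90 for Hist1h4k and -1.49 for Hist1h4h (unadjusted p = 0.238, 0.0356 and 0.0878, adjusted p = 0.647, 0.301 and 0.445 by edgeR). The H4 sum was 4.85 and 3.46 CPM in WT and 3.23 and 2.80 CPM in cKO, or 0.776 and 0.674 of the WT mean, and 0.426 and 0.364 without Hist1h4i.

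**Figure D2:**
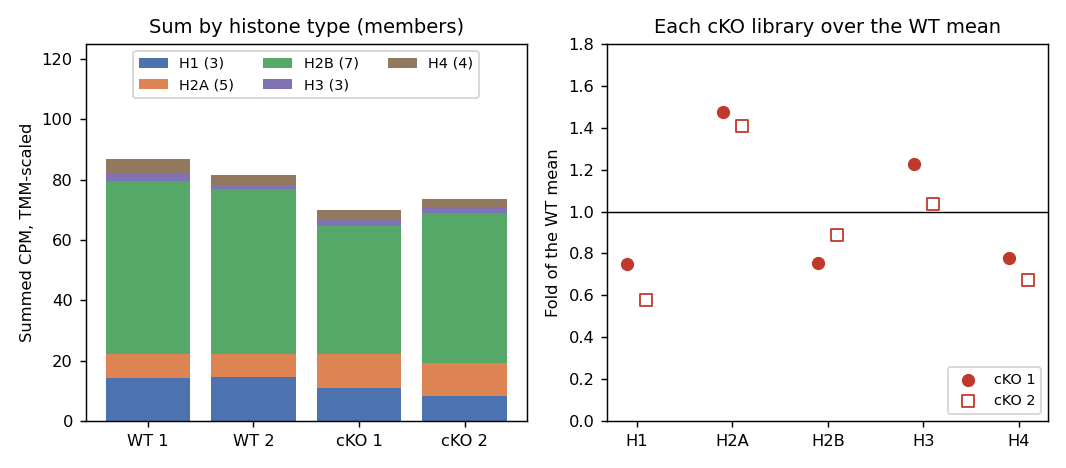
Left, summed CPM of the members of each histone type in each library, as stacked bars with the number of members in brackets. Right, each cKO library as a fold of the WT mean for each type, with a line at 1: both cKO points are below 1 for H1, H2B and H4 and above it for H2A and H3.

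Over all 22 members the sum was 86.8 and 81.4 CPM in WT and 69.9 and 73.5 CPM in cKO, or 0.830 and 0.874 of the WT mean. The sums of H1, H2A and H3 each rested for over 50% on 1 gene. A sum therefore did not stand for its members: the median over the members' own ratios was 1.45 in cKO 1 and 0.692 in cKO 2 for H1, and 0.561 and 1.04 for H2A. For H2B it was 0.801 and 0.791, for H3 1.08 and 1.19, and for H4 0.531 and 0.411. Both cKO libraries lay below both WT libraries in 8 of the 22 members and above them in 3, beside 22.7% and 22% of the 20174 genes with 10 counts or more. The 8 were Hist1h1c, Hist1h2bc, Hist2h2be, Hist1h2be, Hist1h2bj, Hist2h4, Hist1h4k and Hist1h4h, and the 3 were Hist3h2a, Hist1h4i and Hist1h1e. Hist1h2be and Hist2h4 were separated only after scaling: WT 2 and cKO 1 had 17 and 18 counts of Hist1h2be and 7 and 7 of Hist2h4.

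By cluster, the Hist1 members summed to 47.2 and 36.8 CPM in WT and 29.0 and 29.0 CPM in cKO, 0.691 and 0.690 of the WT mean. The Hist2 members summed to 12.6 and 11.8 CPM against 9.58 and 10.4 CPM (0.785 and 0.854), and the Hist3 pair to 27.0 and 32.8 CPM against 31.2 and 34.1 CPM (1.05 and 1.14). In the Hist1 cluster WT 1 was the highest library in 10 of 15 members.

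By the annotated 3′ end, the 15 members with the longer ends were at 0.856 and 0.898 of the WT mean and the 7 others at 0.403 and 0.472. In CPM the 7 summed to 5.82 and 3.67 in WT and 1.92 and 2.24 in cKO. The symbols below the cut gave no direction: they held 34, 23, 19 and 29 counts, with 10 counted in WT alone and 9 in cKO alone. Among the latter, Hist1h2ag had 7 and Hist1h4j 6 counts, all in cKO 2, and these were picked out after their values were seen.

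**Figure D3:**
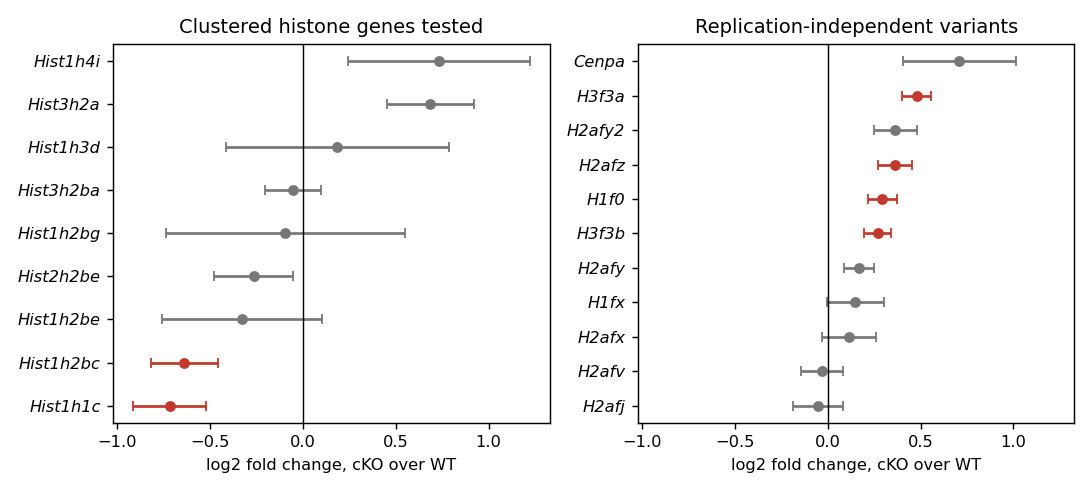
Log2 fold change of cKO over WT with bars of 1 SE on the x axis, from edgeR, for the 9 members tested (left) and 11 replication-independent histone variants (right), in red where the adjusted p is under 0.05. Hist1h1c and Hist1h2bc are the 2 members lower in cKO, and H3f3a, H2afz, H1f0 and H3f3b are the 4 variants higher in cKO.

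The replication-independent variants that passed the test were higher in cKO. Of 11, 4 rose, none fell and 7 did not pass, where 1.87% of all tested genes rose and 2.17% fell. The median log2 fold change was 0.27. Limma-voom also called 4 higher. Upper-quartile scaling, the filter of 10 counts and DESeq2 called 2, and no filter called 1. Leaving out WT 1, cKO 1 or cKO 2 called fewer, in fits with a group of 1 library. H3f3a was at 411 and 453 CPM in WT and 557 and 648 CPM in cKO (change 0.48 on the log2 scale, SE 0.079, adjusted p = 8.97e-04 by edgeR). H2afz, the gene of H2A.Z, was at 70.8, 69.3, 82.3 and 98.0 CPM (change 0.36 on the log2 scale, SE 0.090, adjusted p = 0.0257 by edgeR), and H3f3b at 522, 562, 625 and 682 CPM (change 0.27 on the log2 scale, SE 0.073, adjusted p = 0.0395 by edgeR). H1f0, a linker histone known from cells that have stopped dividing, was at 163, 191, 214 and 221 CPM (change 0.29 on the log2 scale, SE 0.078, adjusted p = 0.0383 by edgeR). Summed over the list the level was 1447 and 1568 CPM in WT and 1774 and 1989 CPM in cKO. The difference between the lists was not tested.

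Clustered histones are made in S phase, and S phase genes that passed the test were higher in cKO. Of 40 S phase genes, all tested, 3 rose and none fell, with a median log2 fold change of 0.35, and 11 were higher at an unadjusted p under 0.05. Over all tested genes 1.87% rose, and 16.3% had an unadjusted p under 0.05 in either direction. Limma-voom called 2 of the list and DESeq2 called 0. The 3 were E2f1, a transcription factor of S phase entry (10.1 and 11.99 CPM in WT, 18.4 and 20.9 CPM in cKO, adjusted p = 0.00630 by edgeR), the kinase gene Cdk2 and Uhrf1, which helps to copy DNA methylation. The summed level of the list in cKO 1 and cKO 2 was 1.05 and 1.27 of the WT mean. Of 25 mitosis genes, 24 were tested, 6 rose and none fell, again beside 1.87% of all tested genes that rose. The median was 0.56, with sums of 1.08 and 1.85 of the WT mean. Limma-voom called 4 higher and 1 lower, and DESeq2 1 higher. Those of smallest p were the kinetochore gene Cenpf, Top2a, which untangles DNA, and the cyclin gene Ccnb1.

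Of the granule neuron progenitor markers, 4 of 10 tested rose (Barhl1, Sfrp1, Ccnd2 and Mfap4) and none fell, beside 1.87% and 2.17% of all tested genes. The median log2 fold change was 0.16. The others ran from 0.31 for Mycn to -0.59 for Gli2 (unadjusted p = 0.0184, adjusted p = 0.185 by edgeR), and 4 of them, Gli2, Gli1, Hhip and Ptch1, had negative values. The sums of all 11 were 412 and 438 CPM in WT and 478 and 567 CPM in cKO. The parts that these lists and the choroid plexus signal of cKO 1 may have in the histone values were not tested.

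The list of genes for histone gene transcription and mRNA processing held 27 genes. Of these 25 were tested, 1 rose and none fell, where 1.87% of all tested genes rose, and the median log2 fold change was 0.03. The 1 was E2f1 again. Npat, the coactivator of the histone clusters, was at 36.9 and 41.2 CPM in WT and 31.8 and 36.0 CPM in cKO (adjusted p = 0.405 by edgeR), and Slbp, the gene of the stem-loop binding protein and also a member of the S phase list, at 22.5, 24.3, 23.6 and 24.98 CPM (adjusted p = 0.906 by edgeR). These were picked for their roles. Of 22 histone chaperones, which carry histones to DNA, none passed in edgeR, DESeq2 or limma-voom, with a median of 0.13. In edgeR 6 had an unadjusted p under 0.05, beside 16.3% of all tested genes. Set had the smallest p (136 and 140 CPM in WT, 161 and 169 CPM in cKO, adjusted p = 0.0578 by edgeR).

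RNAs without a poly(A) tail are given beside these values. Of 16 such RNAs and ribosomal RNA repeats, 8 had no count in any library and 3 were tested. Gm42418 and CT010467.1, which overlap ribosomal RNA repeats, fell, with log2 fold changes of -2.48 and -2.38 (edgeR adjusted p = 7.18e-11 and 1.68e-10). The list summed to 4287 and 6775 CPM in WT and 966 and 1060 CPM in cKO, 0.175 and 0.192 of the WT mean, with WT 2 highest. Rn7sk, a nuclear RNA without a tail, was at 2.27, 1.19, 0.806 and 1.01 CPM. The sum of this list, nearly all of it from Gm42418 and CT010467.1, was lower in cKO. Hist1h1c, Hist1h2bc and the 7 members with short annotated ends were lower too, while Hist3h2a was higher. Within WT the order differed: the list was higher in WT 2. Hist1h2bc (20.1 and 15.5 CPM in WT 1 and WT 2) and the 7 members (5.82 and 3.67 CPM) were higher in WT 1, and Hist1h1c was nearly equal (13.7 and 13.8 CPM). The part of such RNAs in the histone values was not tested.

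Of the other marker lists, the granule neuron list had 1 of 4 lower, Gabra6 (591, 570, 447 and 409 CPM, adjusted p = 7.76e-04 by edgeR), and the oligodendrocyte precursor list had 1 of 6 higher, Gpr17, and 1 lower, Olig1. Among all tested genes 1.87% were higher and 2.17% lower. Of 7 choroid plexus markers tested 3 rose, Ttr, Kl and Car12, all with cKO 1 highest, beside 1 in DESeq2 and 0 in limma-voom. Among 6 microglia, 5 endothelium and 5 red blood cell markers no gene passed in edgeR, DESeq2 or limma-voom, and 0 had an unadjusted p under 0.05. Their sums ranged from 83.9 to 96.6, 137 to 147 and 101 to 103 CPM over the libraries. All markers of these lists had counts.

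**Figure D4:**
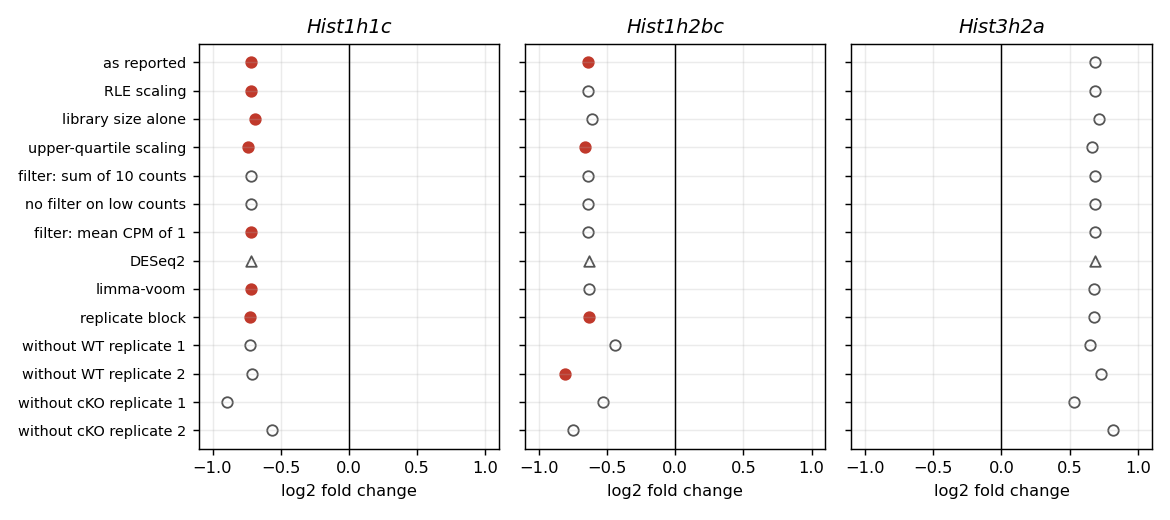
Log2 fold change of cKO over WT for Hist1h1c, Hist1h2bc and Hist3h2a as reported (top row) and under 13 other settings, filled red where the adjusted p is under 0.05, open where it is not, and as triangles where DESeq2 gave no adjusted p. The sign is the same in every row for these 3 genes, while the calls of Hist1h1c and Hist1h2bc are lost in several.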

How the data were processed

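RNA-seq of cerebellum at postnatal day 14 was analysed in 2 WT and 2 Kdm6b-cKO libraries, grouped and numbered by the sample titles. The descriptions of both replicate 2 samples end in the number of replicate 1, and the titles were followed. Per the study's methods and the submitters' processing notes, poly(A)-enriched RNA was sequenced as 150 bp paired reads, trimmed with Trimmomatic 0.38, mapped with STAR 2.7.2b on GRCm38 (mm10), and exon counts per gene were taken with HTSeq, whose strand setting is not given in the sources used here. Deposited values were whole-number read counts per gene symbol, not normalised, made by the authors separately for each library. Reads that fit several near-identical genes are not counted in this way, which lowers members with close copies. Entries assigned to genes made up 39.0% to 40.5% of the deposited totals, and the remainder was left out.

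Genes were filtered with filterByExpr, scaled by TMM (factors 0.986 to 1.02) and tested for genotype with the two-sided quasi-likelihood test of edgeR 4.0.16 in R 4.3.3, with Benjamini-Hochberg adjustment over 16617 genes and a threshold of 0.05. The biological coefficient of variation was 7.33%. Levels are TMM-scaled CPM computed from the counts. SE is an approximate standard error of the log2 fold change, its size divided by the square root of the F statistic of the test. Intervals of counting error were not added, since PCR reads without molecular identifiers are not independent molecules. Libraries of 1 group were not copies of each other, with a chi-square of 3.51 per degree of freedom in WT and 3.82 in cKO. On simulated counts for these 16617 genes of the cKO and WT comparison, recovery was 12% for log2 changes of 0.3, 48% for 0.5, 88% for 1 and 90% for 2, with 3.25% false calls. These rates are over all 16617 genes. They need not hold for tested members of few counts, such as Hist1h2bg with 39 in all.

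Gene structure came from GENCODE M21 of GRCm38 and promoters from RefSeq (GRCm38.p6). Named were Kdm6b, members past the threshold, the 12 members of highest mean CPM, the genes at the cut of 10 counts, and per list up to 3 genes past the threshold or the 1 of smallest p. Further members and the genes Npat, Slbp and Trim17 were named for their place or role. The members and the 13 gene lists (S phase, mitosis, replication-independent variants, histone gene transcription and processing, chaperones, RNAs without poly(A), and markers of 7 cell types) were chosen with earlier results of these data known, so they are not independent evidence of direction. Alternatives were 3 other scalings, 3 other filters, DESeq2 1.42.0, limma-voom 3.58.1, a replicate block and the removal of each library in turn, in which a group of 1 library takes the spread of the other group.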

Additional observations from a re-analysis of the deposited data

How the results depend on the processing

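The count of histone genes lower in cKO was 2 as reported and with upper-quartile scaling. It was 1 with RLE scaling, with library size alone, with genes of mean CPM 1 or more and with limma-voom, and 0 with genes of 10 counts or more, with no filter and in DESeq2. Without single libraries it ran from 0 to 1 (1 without WT 2, 0 without each other library). None was higher under any of the 13 settings. Over all genes, 310 higher and 361 lower became 71 and 106 with no filter and 141 and 183 in DESeq2. Without single libraries they ran from 0 to 263 and from 0 to 244, with 0 called in either direction without cKO 1 and without cKO 2, where 2315 and 1718 genes had an unadjusted p under 0.05. Of the first 6 lists, 13 genes higher became 1 with no filter and 3 in DESeq2, and ran from 0 to 15 without single libraries, while 2 lower ran from 0 to 2. The replicate numbers were not shown to pair the samples (correlation of their deviations 0.043). With the replicate number as a block, edgeR called 549 genes higher and 581 lower, 23 of the lists higher and 3 lower, and again 2 histone genes lower and 0 higher. As medians over members in place of sums, the ratios to the WT mean in cKO 1 and cKO 2 were 1.45 and 0.692 for H1, 0.561 and 1.04 for H2A, 0.801 and 0.791 for H2B and 0.531 and 0.411 for H4. The H2A ratio of cKO 2 was 1.45 with library size alone. Without WT 1 or WT 2 the H2A ratio was 1.51 or 1.45 in cKO 1 and 1.44 or 1.38 in cKO 2. The H3 ratios without WT 1 or WT 2 were 1.78 or 0.934 in cKO 1 and 1.51 or 0.791 in cKO 2. Directions reversed for Hist3h2ba, Hist1h3d, Hist1h2bg and Cx3cr1, none of which passed in any setting. Without single libraries the log2 fold changes ran from -0.21 (without WT 1) to 0.12 (without WT 2) for Hist3h2ba, which was 0.09 without cKO 1. They ran from -0.46 (without WT 2) to 1.41 (without WT 1) for Hist1h3d, from -0.85 (without WT 2) to 1.60 (without WT 1) for Hist1h2bg, which was 0.05 without cKO 1 and 0.32 with limma-voom, and from -0.12 (without cKO 2) to 0.50 (without cKO 1) for Cx3cr1. The cause was not tested. The 13 members under the filter had 11 to 33 counts each, and recovery at this depth was not simulated apart. Leaving out a cKO library gives no other value for the ratios, which are given for each cKO library.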
